A study of Mus musculus with 3 samples.

Results

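The genes examined were the 8 heme synthesis enzyme genes Alas1, Alas2, Alad, Uros, Urod, Cpox, Ppox and Fech, taken by name from the 21911 protein-coding genes of the annotation, and all 8 were found. Their chromatin was read from DNase-seq of embryonic mouse liver collected at 13.5 days, in which DNase I cuts DNA where it is accessible. All 3 libraries belong to 1 group, C57BL/6N,129 animals that are homozygous for a globin mutation given as an HS2 HS3 deletion, and every library carries this deletion. The labels number the libraries as biological replicates, list them as 3 biosamples under 1 donor record, record sex as not collected, and do not say whether livers were pooled or came from separate litters. Liver without the deletion was not analysed here, so no value below is an effect of the deletion. The spread over the replicates may be partly technical.

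Heme is built in a chain of enzyme steps that begins and ends in the mitochondrion and passes through the cytosol. The first step, the joining of glycine and succinyl-CoA by ALAS, limits the rate and exists in a form used by all cells (Alas1) and a form of red cell precursors (Alas2, on the X chromosome). Some of the later genes use separate starts in red cell precursors and in other cells. In the fetal liver, where definitive red cells form, most of the heme goes into hemoglobin, and GATA1, KLF1 and TAL1 are the factors best known for switching on the erythroid forms.

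Peak signal is the highest DNase I cut density in a peak, normalized to read depth, so a level can be set beside that of another gene without regard to gene length. Each replicate has a shorter and a longer peak list, and values come from the shorter list unless the longer is named. Overlapping peaks of the replicates were joined into regions. An open promoter is one with a region found in all 3 replicates within 500 bp of an annotated start, and the signal given for a replicate is the highest of its own peaks within that distance, or 0. Peaks over 1 kb from any annotated start are called distal. Those inside a gene or within 50 kb of it were counted for that gene. The shorter lists held 28209, 57314 and 41319 peaks in replicates 1, 2 and 3, so replicate 2 was the richest. The files used here do not state the depth. For the marker lists a gene was counted as open in a replicate if that replicate alone had a promoter peak. By this rule 51.4%, 57.5% and 55.5% of all protein-coding genes were open in replicates 1, 2 and 3. The red cell marker list was open in 10 of 10 genes in each replicate, with a summed promoter signal of 45.9 to 73.2. The hepatoblast list was open in 2, 6 and 0 of its 10 genes in replicates 1, 2 and 3, with a summed signal of 1.31, 5.04 and 0. In the shorter lists 4 of the 10, Alb and Afp among them, had no promoter peak in any replicate. The longer lists held a weak peak at Alb in replicate 3 (0.399) and at Afp in replicates 1 and 2 (0.731 and 1.19). Ttr, Apob and Fgb were open in the longer lists of all replicates. The tissue is a mixture, so fewer cells of a type and less open chromatin per cell cannot be told apart.

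Of the 8 genes, 7 had an open promoter in all 3 replicates, in the shorter and in the longer list, against 50.9% and 55.6% of all protein-coding genes. With only the most upstream protein-coding start of each gene the count was 4, against 46.4%. Over the 8 genes the median of the mean promoter signal was 8.95, against 5.58 over the 11151 genes open in all 3 replicates. In the order of their means the promoters ran from Fech through Uros, Alad, Urod, Ppox and Cpox to Alas1, with Alas2 at 0. Neighbours in this order from Fech down to Cpox differed by less than the wider of their SDs. Alas1 was the lowest of the 7 open promoters in every replicate, and Alas2 had no peak there.

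**Figure D1:**
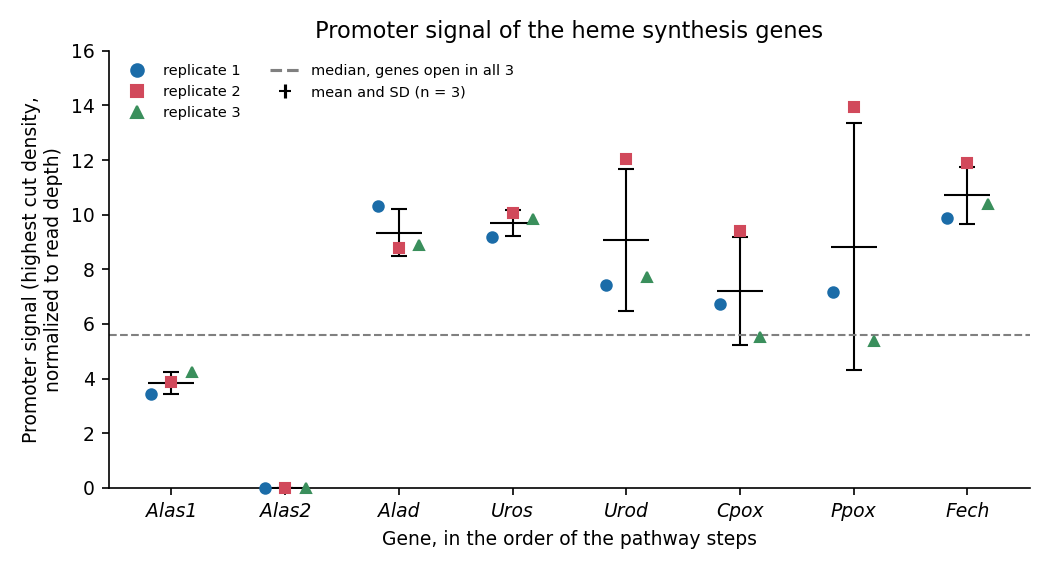
Promoter signal (vertical axis, highest cut density normalized to read depth) of each gene (horizontal axis, in the order of the pathway), with 1 point per replicate and the mean and SD (n = 3) in black. Alas2 lies at 0 in all replicates, Alas1 lies below the dashed median of open promoters (5.58), and replicate 2 stands above the other 2 at Urod, Cpox and Ppox.

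Alas1 codes for the ALAS of all cells. Its gene lies at chr9:106233455-106248654 on the minus strand (mm10), and its promoter signal was 3.44, 3.86 and 4.25 in replicates 1, 2 and 3, a mean of 3.85 ± 0.405 (SD, n = 3). These values stood at the 32.9, 38.3 and 46.1 percentiles of the open promoters of their replicates, so the promoter was open but in the weaker part of the range. The peak, chr9:106247741-106248060, also covers a start of the noncoding gene 4930500F10Rik, to which its signal belongs as much. It lies upstream of the RefSeq start at 106247730 and spans another at 106247954, 224 bp away. None of the 4 other groups of Alas1 starts, 5020 to 11570 bp from the most upstream start, had a peak in either list.

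A footprint is a short stretch within open DNA that was cut less than its surroundings, as happens where a protein covers it. At the Alas1 peak 2 footprints were found in all 3 replicates, at 106247911 to 106247931 and at 106247933 to 106247956. The first held GCGCNTGCG, the core of the NRF1 site, in every replicate, and the second held it in replicates 2 and 3. NRF1 is a factor of mitochondrial genes, and GCGCNTGCG stood in 2.40% to 2.55% of all footprints in promoter peaks. In the 30 bases shown, chr9:106247905-106247934 (GRCm38.p6, minus strand), capitals mark 2 overlapping matches.
Alas1 promoter footprint: gcacccaagGCGCATGCGCggcggtcactc
In the 300 bp around the middle of the peak this motif was found 3 times. It was found in 13.7% of the 14229 windows of that length at promoter regions common to all replicates.

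Alas2 codes for the ALAS of red cell precursors and lies at chrX:150547375-150570638 on the plus strand. Its start, the red cell form of the first enzyme, had no peak in the shorter list of any replicate. The longer lists of replicates 2 and 3 held a peak there, with 0.778 and 0.648, and that of replicate 1 held none. The local cut density did pass a false discovery rate (FDR) of 0.05 there in each replicate, over 31, 217 and 96 of the 1085 bases of the window, with a lowest FDR of 0.0330, 0.00117 and 0.0210. At the Alad start, for comparison, 957 to 1038 bases passed. Words of 32 bases from the Alas2 start window occur once in the genome for 1085 of 1085 positions, so stretches of that length can be placed there. Open promoters on the X chromosome had a median signal of 2.82 (n = 324), against 5.71 on the autosomes (n = 10824), and the part of the X chromosome in the low Alas2 value was not tested.

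The peak of Alas2 that all replicates shared lay inside the gene, in intron 1 at chrX:150549661-150549960, 2.44 kb past the start. Its signal was 1.50, 3.60 and 1.52 in replicates 1, 2 and 3, a mean of 2.21 ± 1.21 (SD, n = 3). It was more than 2-fold higher in replicate 2 than in either other replicate, and its mean was above that of 65.1% of the 8810 distal regions common to all replicates. A second site in intron 8, chrX:150564701-150564960, 17.5 kb past the start, had 2.59 in replicate 2 and no peak in the shorter lists of the others. The longer lists held it in all 3, with 0.98, 2.59 and 0.66. Introns 1 and 8 are where erythroid enhancers of human ALAS2 are known. A further 3 distal peaks, 30573 to 36455 bp upstream of the nearest start, were in the shorter list of replicate 2 alone.

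The intron 1 site is shown on the plus strand with GATAA, the core of the GATA1 site, in capitals on either strand, together with CCNCNCCC, a core of KLF and Sp sites. Beneath it are the 150 bases before the start, chrX:150547225-150547374, with GATAA alone in capitals.
Alas2 intron 1 site: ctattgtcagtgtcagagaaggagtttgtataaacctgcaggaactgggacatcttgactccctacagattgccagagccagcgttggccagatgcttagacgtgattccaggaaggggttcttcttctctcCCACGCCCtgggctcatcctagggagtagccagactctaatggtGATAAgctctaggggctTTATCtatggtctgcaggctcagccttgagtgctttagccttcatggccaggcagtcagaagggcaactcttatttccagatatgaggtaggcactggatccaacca
Alas2 before the start: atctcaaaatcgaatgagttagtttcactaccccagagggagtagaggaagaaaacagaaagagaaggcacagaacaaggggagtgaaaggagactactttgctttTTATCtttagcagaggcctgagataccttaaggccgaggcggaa
The intron 1 site held GATAA at 2 places, bases 177 to 181 and 194 to 198 of the printed run, and CCNCNCCC at bases 133 to 140. The CCNCNCCC match lay wholly in a footprint of replicate 1, and 4 of the 5 bases of the second GATAA match lay in a footprint of replicate 2. No footprint of this site was shared by all 3 replicates, and 1, at 150549740 to 150549755, was shared by replicates 2 and 3. GATAA was found in 36.2% of the common distal windows of 300 bp and CCNCNCCC in 38.6%. The stretch before the start held GATAA once, and no footprint covered it. Over the 150 bases before the start, 13.3% of 32851 RefSeq promoters held GATAA.

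Alad codes for ALA dehydratase, the first cytosolic enzyme of the chain, and lies at chr4:62509169-62519918 on the minus strand. Its promoter signal was 10.3, 8.77 and 8.91 in replicates 1, 2 and 3, a mean of 9.34 ± 0.866 (SD, n = 3), and here replicate 2 was the lowest. The gene is known for a housekeeping and an erythroid start. The GENCODE starts all lie between 62519881 and 62519918, and the RefSeq starts, at 62520063 and 62519909, are 154 bp apart. A single peak, chr4:62519821-62520160, covers both RefSeq starts, so their signals cannot be separated. Which of the annotated starts, if any, is the erythroid one was not determined here. Within this peak 4 footprints were shared by all replicates. One of them, at 62520041 to 62520069, spans the upstream RefSeq start. Another, at 62519930 to 62519949, lies just upstream of the other start and held CCNCNCCC and CANNTG, the E-box core that TAL1 and other factors bind, in every replicate. CANNTG was found in 60.3% of promoter windows of 300 bp. CCNCNCCC stood in 9.44% to 11.5% of all footprints in promoter peaks.

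Alad also had 5 distal regions common to all replicates, the most of the 8 genes, and 4 of them touch intron 1. Counting regions of any replicate, Alad had 8 and Fech 9. Of all protein-coding genes, 3.08% had at least 5. The strongest, in intron 1 at chr4:62516661-62516920, 3.13 kb past the start, had a signal of 7.79, 17.6 and 7.23 in replicates 1, 2 and 3, a mean of 10.9 ± 5.82 (SD, n = 3). It was stronger than the promoter of its own gene in replicate 2 and weaker in replicates 1 and 3, and its mean exceeded that of 99.2% of the common distal regions. The other intron 1 regions were far weaker. The region at chr4:62517161-62517880 had 2.48, 2.80 and 1.79, that at chr4:62515501-62516400 had 1.98, 2.48 and 1.77, and that at chr4:62514146-62514405, which reaches into exon 2, had 1.65, 1.34 and 1.35. In chr4:62515501-62516400 the strongest peaks of replicates 1 and 2 do not overlap, so their values belong to different places. The fifth, downstream of the gene at chr4:62505481-62507189, had 2.38, 3.41 and 1.88 and lies nearest to a start of Hdhd3, 2014 bp away.

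The strong intron 1 site of Alad is printed on the minus strand, the strand of the gene, because it is the most accessible distal region near any of the 8 genes. Capitals mark GATAA and CCNCNCCC on either strand.
Alad intron 1 site: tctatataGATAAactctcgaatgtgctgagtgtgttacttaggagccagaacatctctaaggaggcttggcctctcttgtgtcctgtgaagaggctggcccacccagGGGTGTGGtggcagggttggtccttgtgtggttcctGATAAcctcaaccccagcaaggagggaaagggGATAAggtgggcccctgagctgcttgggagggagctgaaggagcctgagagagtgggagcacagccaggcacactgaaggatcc
It held GATAA at 3 places and CCNCNCCC once, and 4 of its footprints were shared by all replicates. Those at 62516718 to 62516738 and 62516743 to 62516756 lie on either side of the GATAA match at bases 177 to 181, of which a footprint covered 2 bases in replicate 1 and none in the others. A footprint at 62516806 to 62516832 overlapped the CCNCNCCC match by 7 bases in replicate 2 and 3 bases in replicate 3. No whole GATAA match of this site lay in a footprint of any replicate.

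Uros codes for uroporphyrinogen III synthase, which closes the ring, and lies on the minus strand of chromosome 7. Its annotated starts form 4 groups. The group of the full-length transcripts, at 133708958 to 133709281, is the housekeeping start, and 1 lone start lies 791 bp upstream of it. A group inside intron 1, at 133702538 to 133702616 with a RefSeq start at 133702500, matches the known erythroid start, and a noncoding start lies in intron 5.

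Both forms were open in all replicates. The housekeeping start had a signal of 9.19, 10.1 and 9.82 in replicates 1, 2 and 3, a mean of 9.69 ± 0.458 (SD, n = 3), the tightest relative spread of the open promoters. Its peak, chr7:133709201-133709400, also covers a start of the neighbouring gene Bccip. These values are those of the strongest peak. An adjoining peak at the same start group, chr7:133708981-133709200, had 6.82 in replicate 2 and was in neither list of replicates 1 and 3. The erythroid start had 2.65, 4.74 and 2.30, a mean of 3.23 ± 1.32 (SD, n = 3), in a peak at chr7:133702418-133702680. The housekeeping start was thus the higher in every replicate, and the 2 sets of values did not overlap. At the noncoding start in intron 5 the signal was 2.31, 3.05 and 1.48. The lone upstream start had 1.42 in replicate 2 and no shorter-list peak in replicates 1 and 3. Of the 32-base words of the erythroid start window 93.0% occurred once in the genome, as did 100% of those in its peak and in the housekeeping window.

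The footprints of both Uros starts differed in their letters. At the housekeeping start a footprint at 133709314 to 133709348 held GCGCNTGCG in all replicates. At the erythroid start 3 joined footprints were found in all replicates. The widest, 133702560 to 133702602, held the same GATA match in each of them, and in replicate 2 also GATAA at another place. The shared match is followed by C on its strand, so it is not part of a GATAA. The housekeeping match and the shared GATA match are shown in 30 bases each on the minus strand, from chr7:133709323-133709352 and chr7:133702582-133702611. GCGCNTGCG is in capitals in the first and GATA, on the opposite strand, in the second.
Uros housekeeping footprint: cggtcacactGCGCCTGCGcgagtcccgcc
Uros erythroid footprint: cctttccaggcagTATCagcggctaacacg
GATAA was found once in the 300 bp at the erythroid start, and the window at the housekeeping start held none. GATA alone was found in 37.0% of promoter windows.

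Urod codes for uroporphyrinogen decarboxylase, the last cytosolic step, and lies at chr4:116989965-116994413 on the minus strand. Its main promoter had a signal of 7.41, 12.0 and 7.73 in replicates 1, 2 and 3, a mean of 9.06 ± 2.59 (SD, n = 3). Replicate 2 stood above the other 2, which were close together. Inside the gene were 2 more peaks near starts of noncoding transcripts. The first, in intron 1 at chr4:116993721-116993920, had 3.97, 5.53 and 3.84, and the second, at intron 7, chr4:116991461-116991680, had 2.47, 2.89 and 2.46. The intron 1 peak held GATAA once and a footprint with CCNCNCCC in all replicates, chr4:116993815-116993839, shown on the minus strand with the match in capitals.
Urod intron 1 footprint: gggaggcggtGGGCGGGGagccatg
No distal region around Urod was common to all replicates.

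Cpox codes for coproporphyrinogen oxidase of the space between the mitochondrial membranes and starts at chr16:58670292 on the plus strand. Its promoter signal was 6.73, 9.40 and 5.54 in replicates 1, 2 and 3, a mean of 7.22 ± 1.98 (SD, n = 3), with replicate 2 again the highest. Its peak, chr16:58670021-58670480, held GATAA at 2 places in the central 300 bp, where 13.3% of promoter windows held at least 1. Over the 120 bases before a RefSeq start the share was 10.5%. The 120 bases before the RefSeq start, chr16:58670088-58670207, contain the first, in capitals.
Cpox before the start: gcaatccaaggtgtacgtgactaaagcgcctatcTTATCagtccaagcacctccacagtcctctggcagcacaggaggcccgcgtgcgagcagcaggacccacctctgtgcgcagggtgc
No footprint of any replicate covered a base of that match, and 1 footprint of the peak, at 58670335 to 58670352, was shared by all replicates.

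Ppox codes for protoporphyrinogen oxidase of the inner mitochondrial membrane and has its main start at chr1:171281186 on the minus strand. Its signal was 7.16, 13.9 and 5.38 in replicates 1, 2 and 3, a mean of 8.83 ± 4.52 (SD, n = 3), the widest spread of the 8 genes. Replicate 2 was 2.23 times the mean of the other 2, and 98.7% of the common promoter regions had a lower ratio. A second peak just upstream, chr1:171281481-171281900, had 3.87, 5.03 and 4.54, a mean of 4.48 ± 0.583 (SD, n = 3), so both peaks of this start differed in how far replicate 2 stood apart. A footprint inside the main peak, chr1:171281029-171281055, is shown on the minus strand with CCNCNCCC in capitals, and its last letters, ttatc, are a GATAA match on the opposite strand.
Ppox promoter footprint: ggagatagcgtGGGCGTGGcccttatc
The CCNCNCCC match was covered in the footprints of all replicates. The GATAA match was whole in the footprint of replicate 1 and not whole in that of replicate 2. In replicate 3 the stretch lay outside the peak, which began at 171281081, and the cover of GATAA there was not examined.

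Fech codes for ferrochelatase, which puts iron into the ring, and lies on the minus strand of chromosome 18. Its main starts lie at 64488941 to 64489430 (mm10), and a lone start 821 bp upstream had no shorter-list peak. The promoter signal was 9.88, 11.9 and 10.4 in replicates 1, 2 and 3, a mean of 10.7 ± 1.04 (SD, n = 3) and the highest of the 8 genes. The peak, chr18:64489001-64489240, had 5 footprints in each replicate. Those at 64489083 to 64489102 and 64489112 to 64489146 held CCNCNCCC in every replicate, and that at 64489178 to 64489208 held a whole GATAA in every replicate. Fech was the single gene of the 8 with a whole GATAA inside a footprint in all 3 replicates, in promoter or distal peaks. Of all footprints in promoter peaks, 0.184%, 0.354% and 0.270% held GATAA in replicates 1, 2 and 3. These are shares of footprints, not of genes. With the shorter letters GATA the count of genes was 3, which adds Alad and Uros, at Alad not in the same footprint in each replicate. The share of all protein-coding genes that meet either rule was not computed.

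Fech had 2 distal regions common to all replicates. The nearer, chr18:64491301-64491560, at -2.33 kb from the main start, had a signal of 2.89, 5.52 and 2.46, a mean of 3.62 ± 1.66 (SD, n = 3), with 2 footprints shared by all replicates. It lies 1050 bp from the lone upstream start, just past the 1 kb limit, and is not distal with a limit of 2 kb. The other, chr18:64538961-64539200, at -49.98 kb, had 1.18, 1.29 and 1.22 and lies nearer to Atp8b1. Inside the gene, sites in intron 1 (chr18:64485736-64485980) and intron 2 (chr18:64482581-64482840) had 3.41 in replicate 2 and 1.16 and 1.13 in replicate 3, and no peak in replicate 1. The intron 2 site had a footprint at 64482686 to 64482711 that held TGANTCA, the core of NF-E2 and AP-1 sites, in replicates 2 and 3. TGANTCA stood in 0.485% and 0.306% of all footprints in distal peaks of those replicates.

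**Figure D2:**
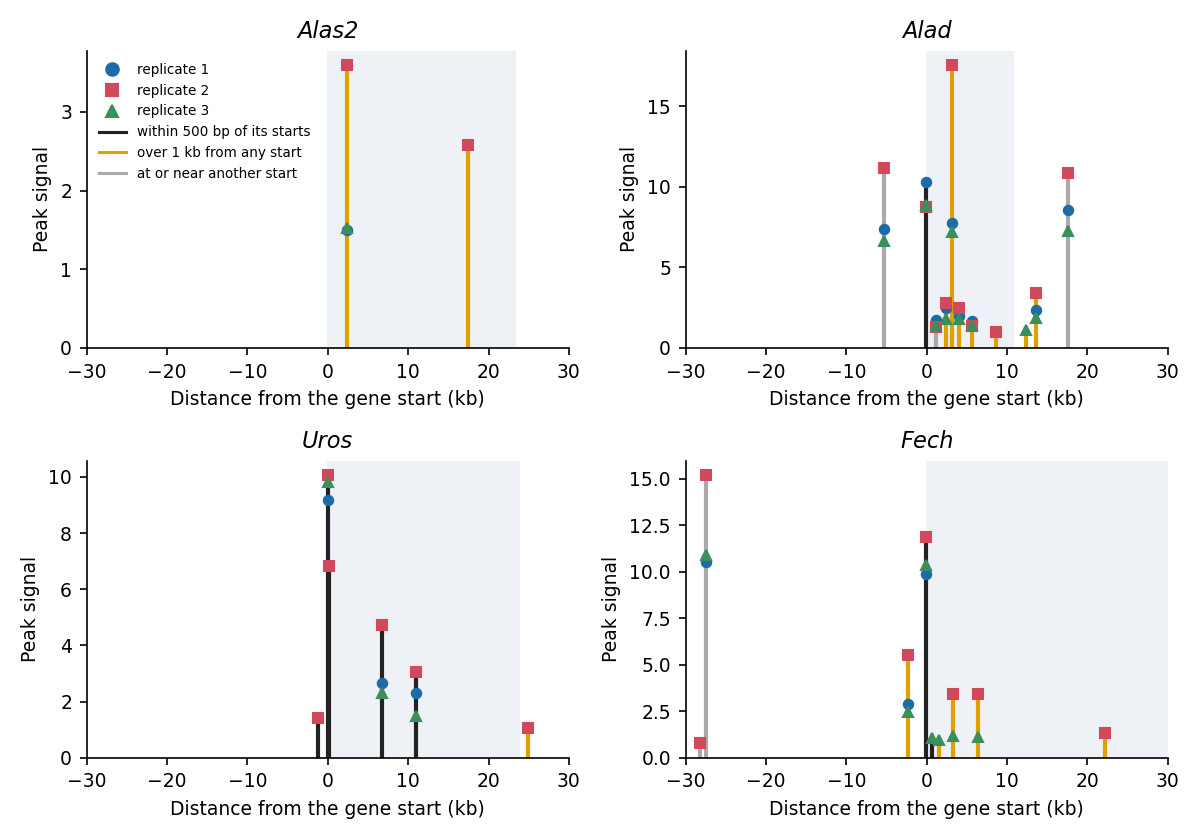
Peak signal (vertical axis, own scale in each panel) of regions against distance from the start of the gene's principal transcript (horizontal axis, kb, positive in the direction of transcription) at Alas2, Alad, Uros and Fech, with 1 point per replicate that has a peak and the gene body shaded. Lines are black for regions within 500 bp of the gene's starts, orange for distal regions and grey for the remaining regions, within 1 kb of a start of any gene. The grey Alad region at 1.12 kb lies 729 bp from a start of Alad itself. In these shorter lists Alas2 has peaks in the gene body and none at the start, and the Alad intron 1 site reaches 17.6 in replicate 2.

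Around the 8 genes the replicates held 31 distal regions in all, of which 9 were common to all 3. Over the genome 25.8% of distal regions were common. Replicates 1, 2 and 3 held 9, 29 and 17. At least 1 common region within 50 kb was found at 4 of the 8 genes (Alas1, Alas2, Alad and Fech), against 49% of all protein-coding genes. The 1 region of Alas1, at -41.3 kb from the start with 1.15, 1.09 and 1.04, lies nearer to Poc1a. Regions in replicate 2 alone made up 14 of the 31, or 45.2%, against 43.0% of the 34156 distal regions of the genome. A footprint in a promoter peak was found in all replicates at 7 of the 8 genes, against 49.9% of all protein-coding genes. Such a footprint needs a promoter peak, so Alas2 could not have one and the count largely repeats that of open promoters. Over all protein-coding genes 10923 had one, beside 11151 with an open promoter.

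GATAA was found in 7 of the 9 common distal windows of these genes, against 36.2% of all such windows, and in 5 of their 12 promoter windows, against 13.3%. Each window lies at the centre of the joined region. At the Alad regions chr4:62505481-62507189 and chr4:62515501-62516400, both among the 7, it lies outside the strongest peak of replicate 1. CCNCNCCC was found in 3 of the 9 and 8 of the 12, against 38.6% and 70.6%. TGANTCA was found in 0 of the 9 and 0 of the 12, against 9.49% and 3.61%, and the Fech intron 2 site that held it is not among the 9, since replicate 1 had no peak there. CTG followed after 7 or 8 bases by GATAA, the paired site of TAL1 and GATA1, was found in 0 of the 9 and 1 of the 12, against 4.03% and 0.998%, and the 1 was the window of the noncoding Uros start in intron 5. All letters were searched on both strands, a match is not a binding site, and several of the windows share a gene.

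The sites of these genes differed in how far replicate 2 exceeded the other replicates. Over the common distal regions the signal of replicate 2 was 1.14 times the mean of replicates 1 and 3 (median, quartiles 0.933 and 1.44), and over common promoter regions 1.20 times (quartiles 0.954 and 1.47). The ratio was 2.38 at the Alas2 intron 1 site, 2.34 at the strong Alad intron 1 site and 2.06 at the nearer upstream site of Fech. At the other 6 common distal regions it lay between 0.893 and 1.60, with 1.31, 1.32 and 0.893 at the other Alad regions that touch intron 1 and 1.07 at the far site of Fech. A ratio over 2 was reached by 6.08% of the common distal regions. Among promoters it was 2.23 at Ppox, 1.92 at the erythroid start of Uros, 1.59 at Urod and 1.53 at Cpox. It was 1.17 at Fech, 1.06 at the housekeeping start of Uros, 1.00 at Alas1 and 0.912 at Alad. The summed red cell marker signal was 47.9, 73.2 and 45.9 in replicates 1, 2 and 3, so it too was highest in replicate 2, as was that of the hepatoblast list. Their part in these ratios was not tested.

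**Figure D3:**
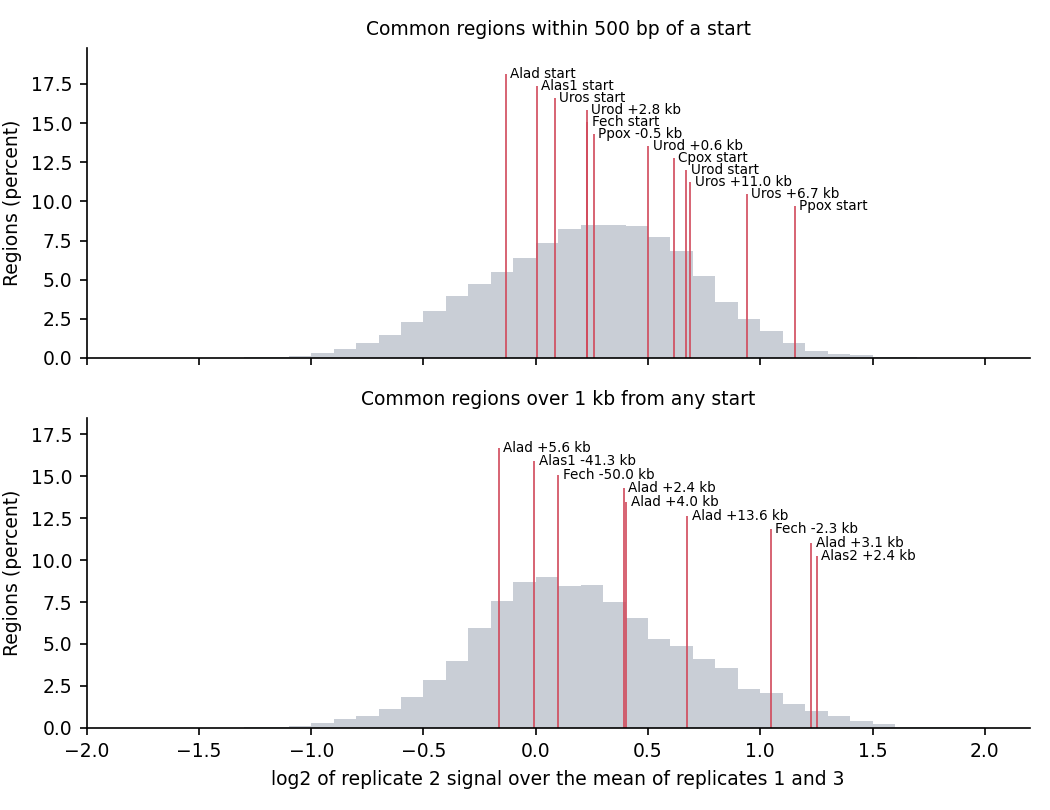
Share of common regions (vertical axis, percent, grey bars) by the log2 ratio of replicate 2 to the mean of replicates 1 and 3 (horizontal axis), near starts in the upper panel and distal in the lower, with red lines at the regions of the 8 genes, named by distance from the gene start. The Ppox start, the Alas2 and Alad intron 1 sites and the upstream Fech site lie past a ratio of 2 (1 on this axis), while the Alas1 and Alad starts lie near 0.

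Of 30 listed genes that feed, move, regulate or break down heme, 28 had an open promoter in all replicates and 29 in the longer lists, against 50.9% and 55.6% of all protein-coding genes. In the supply of substrates 6 of 6 were open, from Slc25a38, the mitochondrial glycine carrier, with 8.68, 12.1 and 8.93, down to Suclg2, a subunit of succinyl-CoA synthetase, with 2.32, 2.22 and 2.12. In iron-sulfur assembly 3 of 3 were open, from Glrx5, a glutaredoxin, with 8.53, 18.7 and 8.37, to Nfs1, a cysteine desulfurase, with 5.24, 6.30 and 5.07. In the control of ALAS 6 of 7 were open. Ireb2, which codes for an iron regulatory protein that binds ALAS2 mRNA, was the highest with 10.5, 15.6 and 11.3, and Ppargc1a, the coactivator that induces Alas1 on fasting, had 0, 0.284 and 0. In heme breakdown 4 of 4 were open, from Blvrb, a biliverdin reductase, with 10.4, 21.9 and 9.37, to Hmox1, the inducible heme oxygenase, with 1.98, 2.38 and 2.43.

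In transport 9 of 10 were open, with Flvcr1, a heme exporter, the highest with 8.82, 16.6 and 8.20. Flvcr2 counts as open although its replicate 1 value is 0, since the peak of that replicate ended just outside the 500 bp and was joined with peaks that reach into it. The exception was Slc25a37, which codes for mitoferrin-1, the mitochondrial iron importer of red cell precursors. It had no peak near its starts in either list of any replicate. Of the 1001 words of 32 bases in each of its 3 start windows 0 occurred once in the genome, unlike those at Alas2, so the missing peak does not show closed chromatin there.

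**Figure D4:**
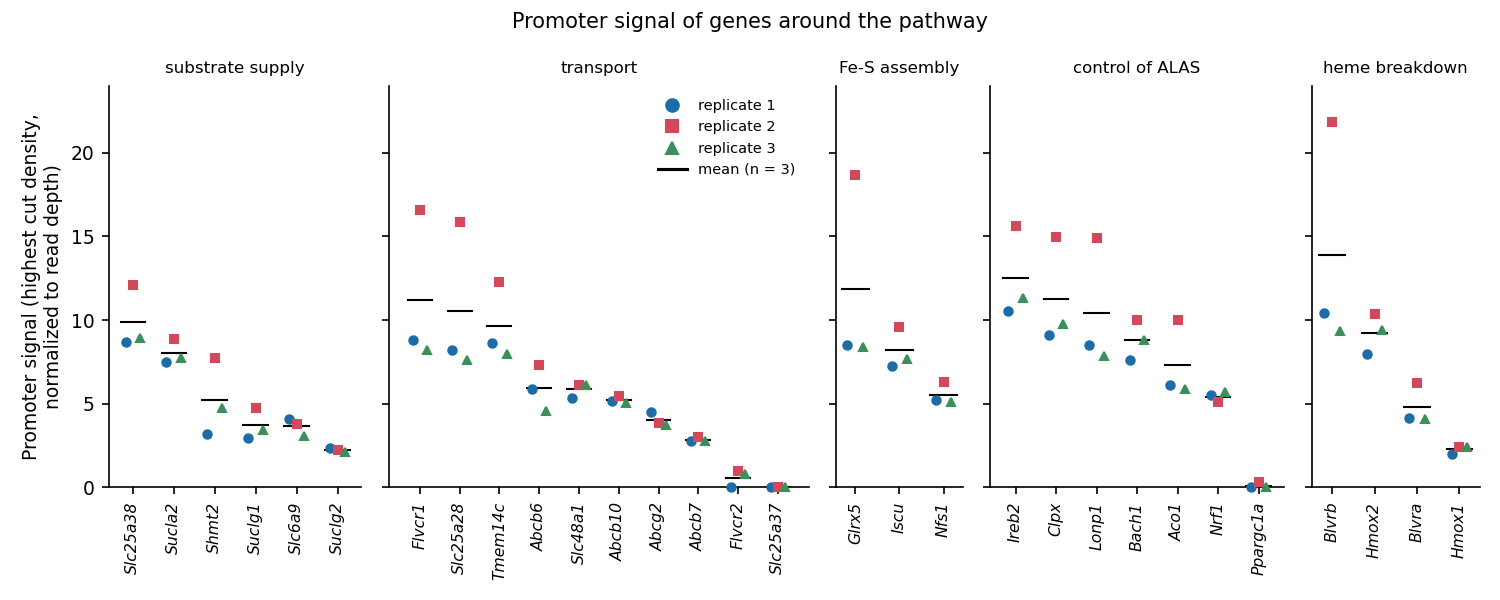
Promoter signal (vertical axis) of the 30 listed genes in 5 groups (horizontal axis, ordered by mean within each group), with 1 point per replicate and the mean as a line. Glrx5, Blvrb, Slc25a28 and Flvcr1 have the widest gap between replicate 2 and the others, and Slc25a37 lies at 0.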

How the data were processed

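DNase-seq of 3 replicates of 1 group was analysed. The peak signal is, per the deposited notes, the highest cut density normalized to read depth, computed by the authors per sample on mm10. The deposited FDR values are a q-value type of p-value, listed where the local cut density passed 0.05, and the footprints carry an FDR of 0.01 in every entry. Which aligner and which peak and footprint callers made the files was not given in the sources used here, and neither was the depth.

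Annotated starts were those of GENCODE M21, with bases read from GRCm38.p6 (mm10, the build of the files), with promoter sequences from RefSeq matched for 7 of the 8 genes by symbol. Peaks were joined over replicates where they shared at least 1 bp. Starts within 500 bp of each other formed 1 group. For Uros the most upstream group is a lone start, so the group of the principal transcripts was taken as the housekeeping start. Footprints were counted where they overlapped a peak of the same replicate by at least 1 bp. The 10 motifs were searched in footprints and in 300 bp windows at region centres. Words of 32 bases were counted over the assembly on both strands. Work was done in Python 3.11.15 with pandas, numpy and pysam, and the counting was tested on simulated data.

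The genes and lists were chosen with earlier results of these data known. All 8 genes are named, and of each list of pathway genes the highest and lowest by mean promoter signal. One gene of the planned lists is not reported here and was left out of their counts. Genes around the pathway named for other reasons were chosen after their values were seen. With 1 group there is no comparison between groups, and no test was run. Alternatives in peak list, window, start choice, peak strength, overlap, distance, motif letters and replicates are described in the closing section.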

Additional observations from a re-analysis of the deposited data

How the results depend on the processing

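Among the alternatives run for the counts, 41 stayed within 1.5 times the count reported and 7 did not. The number of genes with an open promoter was 7 under each setting run but 1. With only the most upstream protein-coding start it was 4, since no region common to all replicates lay within 500 bp of that start at Alas1, Uros and Fech, whose mean signals there were 0, 0.474 and 0. Of all protein-coding genes 46.4% were open under that setting, a share near the 4 of 8. Genes with a common distal region numbered 2 with the upper 50% of peaks and 7 within 100 kb, instead of 4, beside 23.7% and 62.8% of all protein-coding genes, and the regions themselves 4 and 18, instead of 9. Leaving out replicate 1, which has the fewest peaks, gave 6 genes, beside 66.6% of all protein-coding genes, and 15 regions. Leaving out replicate 2 or replicate 3 gave 4 genes each, beside 49.2% and 49.4%, and 9 and 10 regions. With the letters GATA in place of GATAA, 3 genes instead of 1 held the motif in a footprint in all replicates. In the longer list the Alas2 promoter had a mean of 0.475. No paired analysis was possible because all libraries belong to 1 group. The depth of the libraries is not stated in the files used here, so a site without a peak is not shown to be closed.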
